A study of Danio rerio with 2 samples.

Results

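The nuclear genes of oxidative phosphorylation were followed in cells of zebrafish embryos sorted for a pigment cell reporter. Members were all rows of the deposited gene list whose symbol, in any case, starts with nduf, uqcr, sdh or atp5, or with cox followed directly by a digit. This gave 115 of the 25107 rows, with 114 symbols, since COX5B is listed under 2 gene IDs. The rule took 45 genes of complex I, 9 of complex II, 8 of complex III, 34 of complex IV and 19 of complex V, of which 92 encode subunits, 21 assembly factors and 2 the inhibitory factors of complex V. Genes such as cytochrome c1, whose symbols begin otherwise, were not taken and are given separately below.

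All cells came from Tg(mitfa:GFP) embryos at 24 hpf, in which the promoter of mitfa, the gene of the transcription factor that directs melanophore fate, drives green fluorescent protein. Cells with high and with low fluorescence were sorted into 1 library each, the mitfa:GFP high (High) and mitfa:GFP low (Low) libraries, with no untreated or unsorted group and no second library of either kind. The sort follows the transgene, so other cells that carry the reporter are present, and the embryos behind each library are pooled in numbers the sources used here do not give. Because each library stands alone, no test was possible, and every range in parentheses after a ratio or a share below is an exact 95% interval that covers counting error only. The cell table kept 2374 cells with 17545390 unique molecular identifiers (UMIs, counts of captured transcript molecules) in the High library, and 2361 cells with 14826056 UMIs in the Low library. The medians were 6858 UMIs per cell in the High library and 5732 in the Low library, 1 barcode occurs in both libraries, and levels are given in CPM, the UMIs of a gene in a group of cells divided by all UMIs of those cells and scaled to a common total, such that 19108 CPM is 1.91% of UMIs.

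Oxidative phosphorylation takes place in the inner mitochondrial membrane. Complexes I and II feed electrons from NADH and succinate into the chain, complex III passes them to cytochrome c, complex IV hands them to oxygen, and complex V, the ATP synthase, makes ATP from the resulting proton gradient. Most subunits are nuclear genes, while a small set of core subunits is encoded by mitochondrial DNA, so that both genomes must supply the same complexes. Muscle is known for its dense mitochondria, slow fibres above all. The counts come from transcript 3′ ends and need no scaling by length, but the level of a gene also depends on how well its 3′ end is annotated.

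Of the 115 members, 104 had at least 50 UMIs over both libraries, 80 had at least 1000 and 21 had over 10000. There were 3 members at 0 UMIs, the second COX5B entry, cox6a2 and ndufa4l2b. Another 8 had 1 to 49 UMIs, namely ndufa9b, ndufaf7, ndufs1, sdhda, cox4i1l, cox4i2, cox5b2 and cox8b. Among these, ndufs1, which encodes a core subunit of complex I, had 8 UMIs, and the accessory subunit gene ndufb11 had 57. Whether the annotated 3′ ends of these genes account for such low counts was not tested. Where 2 zebrafish copies are near-identical in their 3′ ends, the division of reads between them is uncertain.

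The deposited table assigns the cells to clusters, which were called by the markers they carry. Cluster 6 was melanophore-like, with summed melanophore markers at 16379 CPM in the High and 14468 in the Low library, and cluster 3 xanthophore-like, with 30698 and 25196 CPM of xanthophore markers. Xanthophores are the yellow pigment cells. Clusters 0, 4, 5, 7 and 8 were neural progenitor-like, neuron-like, retina-like, epidermis-like and muscle-like. Clusters 1, 2 and 9 stayed unnamed, led by alx4a, twist1a and ins. Cluster 6 has only 22 cells in the Low library and cluster 9 has 19 cells, all in the Low library, so the Low values of both rest on few cells. The clusters were formed from gene expression in these same cells, and the genes used may include members, so the differences between clusters are descriptions.

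Members were highest in the muscle-like cluster, next in the melanophore-like cluster, and lowest in the neural progenitor-like cluster. They made up 31510 CPM in the High and 31240 in the Low library in cluster 8, against 23708 and 23126 in cluster 6. Cluster 3 held 20268 in the High and 19939 in the Low library, and the retina-like cluster 5 held 20481 and 19707, so these neighbours in the order lay within a few percent of each other. Cluster 1 followed the libraries more than any other, at 20831 in the High and 18434 in the Low library. The lowest group contained the epidermis-like cluster 7 with 15206 in the High and 15219 in the Low library, the neuron-like cluster 4 with 14911 and 14765, cluster 2 with 14404 and 14482, and cluster 0 with 14096 and 13575. In single cells, members took a median of 2.32% of the UMIs in cluster 6 in either library, against 1.35% in the High and 1.29% in the Low library in cluster 0. Even the 5th percentile of cluster 6, at 1.95% in the High and 2.08% in the Low library, lay above the 95th percentile of cluster 0, at 1.92% and 1.91%. The distributions of cells of cluster 8 were wider, with 5th to 95th percentiles of 1.55 to 5.52% in the High and 1.68 to 5.51% in the Low library.

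**Figure D1:**
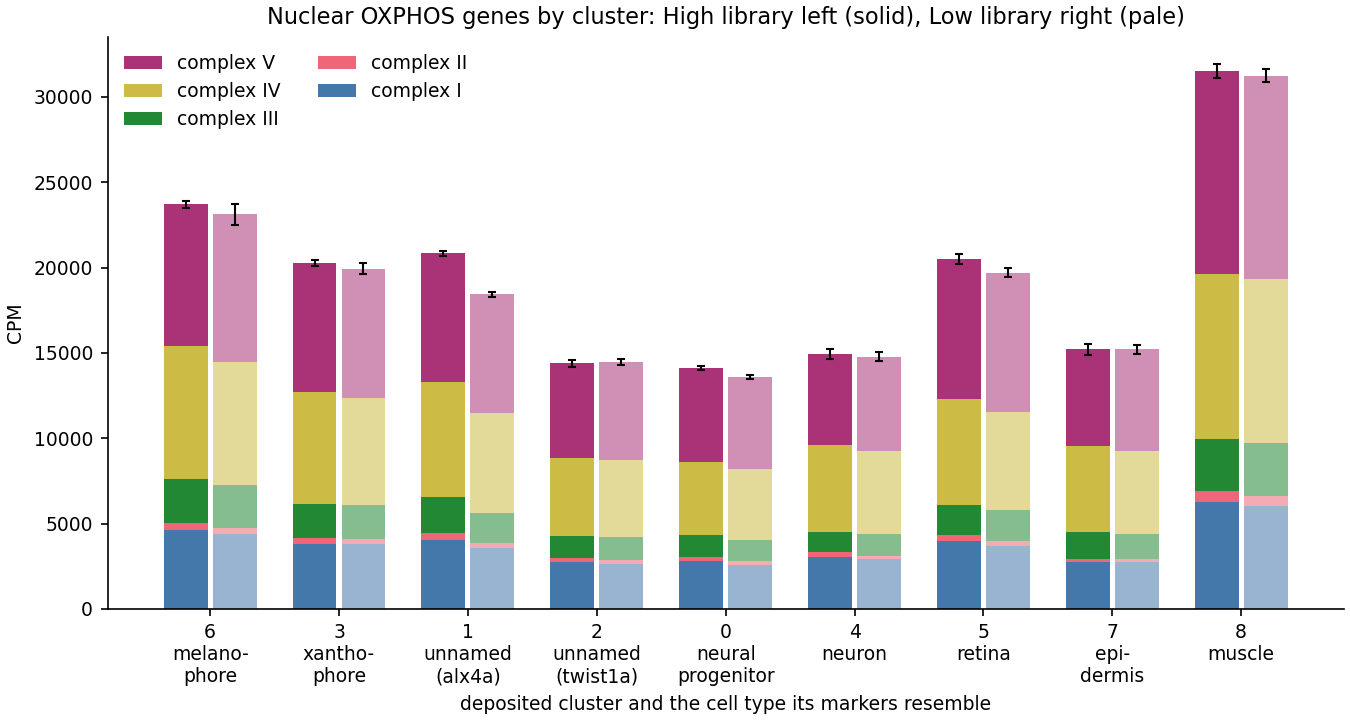
Summed level of the nuclear oxidative phosphorylation genes in CPM, stacked by complex, for deposited clusters 6, 3, 1, 2, 0, 4, 5, 7 and 8, with the High library as the left bar of each pair and the Low library as the right bar. Black lines are 95% Poisson intervals of the sum, and cluster 8 stands at 31510 and 31240, cluster 6 at 23708 and 23126, and cluster 0 at 14096 and 13575.

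Cells of cluster 6 were deeper than those of cluster 0, with medians of 10960 and 4447 UMIs in the High library and of 10562 and 4559 in the Low library, and within cluster 0 the level of members moved with depth. It was 12863 CPM in High cells below 3000 UMIs and 15172 in those above 12000, and 12316 and 15647 in the same bands of Low cells. Among cells with 6000 to 12000 UMIs clusters 8, 6, 3 and 0 kept their order. Cluster 8 had 30981 in the High and 32522 in the Low library, and cluster 6 had 23953 and 23617. Cluster 3 had 20469 and 20088, and cluster 0 had 14643 and 13899. Some clusters between these changed places. In the High library cluster 3 stood above cluster 5, at 20162, and clusters 7, 2 and 4 lay near cluster 0, at 14958, 14840 and 14719. In the Low library cluster 4, at 15891, stood above cluster 7, at 15245. Depth was not equal within this band, with means of 9953 and 9431 UMIs in cluster 6 against 7829 and 7775 in cluster 0. Ribosomal protein genes took between 29.05 and 42.29% of the UMIs of clusters 0 to 8.

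All 5 complexes shared the difference between melanophore-like and neural progenitor-like cells. Complex I stood at 4602 CPM in the High and 4393 in the Low library in cluster 6, against 2818 and 2598 in cluster 0, a log2 ratio of 0.71 and 0.76. Complex II, which is also the succinate dehydrogenase of the citric acid cycle, stood at 444 and 371 in cluster 6 against 238 and 209 in cluster 0, with log2 ratios of 0.90 and 0.83. Complex III showed the widest separation, with 2568 and 2508 in cluster 6 against 1246 and 1250 in cluster 0. Its log2 ratios were 1.04 in the High library and 1.01 (0.88 to 1.13) in the Low library, or 2.06-fold and 2.01-fold. Complex IV had 7790 and 7179 in cluster 6 against 4324 and 4159 in cluster 0, at 0.85 and 0.79. Complex V had 8304 and 8675 in cluster 6 against 5470 and 5360 in cluster 0, and its log2 ratio was the smallest of the 5, 0.60 (0.57 to 0.63) in the High and 0.69 (0.63 to 0.76) in the Low library. The make-up of the pool differed accordingly. Complex III took 10.83% of member UMIs in cluster 6 and 8.84% in cluster 0 in the High library, and complex V took 35.03% and 38.81%.

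Summed over members, cluster 6 was 1.68-fold above cluster 0 in the High library, a log2 ratio of 0.75 (0.73 to 0.77), and 1.70-fold above it in the Low library, at 0.77 (0.73 to 0.81). Single members were compared where both sides together held at least 50 UMIs, which 92 of 115 met in the High and 90 in the Low library, and a 1.5-fold difference was counted as higher or lower. By that measure 52 members were higher and 0 lower in cluster 6 in the High library, and 51 were higher and 5 lower in the Low library. Over all genes compared in the same way, 30.9% were higher and 42.6% lower in the High library, and 23.5% were higher and 42.7% lower in the Low library. The members' shares, 56.5% and 56.7% higher, lay above these, and their median log2 ratio of 0.66 in each library stood against a median of all genes of -0.22 in the High and -0.33 in the Low library. In the High library the higher members were 22 of 39 in complex I, 5 of 6 in complex II, 7 of 8 in complex III, 10 of 20 in complex IV and 8 of 19 in complex V. In the Low library they were 21 of 37, 4 of 6, 5 of 8, 9 of 20 and 12 of 19 in complexes I to V, so the higher share of complex III than of complex V held only in the High library. Assembly factors, which help to build the complexes without being part of them, were higher in 4 of 13 cases and lower in 0 in the High library, about the share of all genes, and higher in 4 of 11 and lower in 3 in the Low library. With TMM scaling in place of totals, the count in the Low library was 24 in place of 51, or 26.7% of members against 16.6% of all genes.

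Xanthophore-like cells differed from neural progenitor-like cells in the same direction by a smaller amount. The sum was 1.44-fold higher in cluster 3 than in cluster 0 in the High library, a log2 ratio of 0.52 (0.51 to 0.54), and 1.47-fold higher in the Low library, at 0.55 (0.53 to 0.58). In the High library 33 of 93 members were higher and 5 lower, against 28.4% and 41.9% of all genes, and in the Low library 35 of 90 were higher and 2 lower, against 22.6% and 44.4%. Of members, 35.5% in the High and 38.9% in the Low library were higher, which for the High library is close to the background. There the count depended on scaling, with 53 members, or 57.0%, higher under TMM against 33.4% of all genes, and 51, or 54.8%, under median-of-ratios factors against 31.9%. Complex III again had the largest log2 ratios, 0.69 and 0.67, and complex I the smallest in the High library at 0.43. Cluster 6 stood above cluster 3 by a log2 ratio of 0.23 in the High and 0.21 in the Low library.

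**Figure D2:**
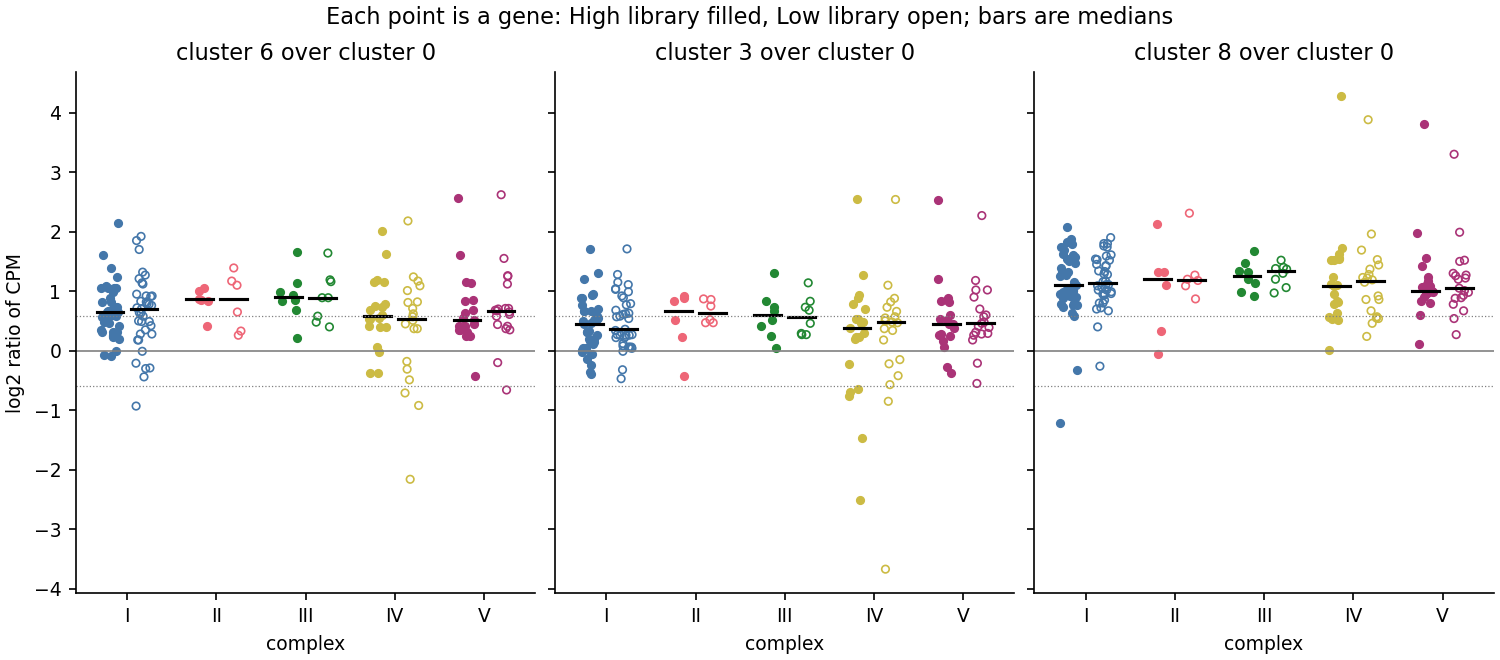
Log2 ratios of single members, by complex, for clusters 6, 3 and 8 over cluster 0, with the High library as filled and the Low library as open points, 1 point a gene with at least 50 UMIs on both sides together, and black bars at the medians. Dotted lines mark 1.5-fold; most points of cluster 8 lie above the upper line, with 83 of 92 in the High and 82 of 91 in the Low library, while cox6b1 lies lowest for cluster 3, at -2.51 and -3.67.

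Set against neuron-like cells, the melanophore-like cells were higher by a log2 ratio of 0.67 in the High and 0.65 in the Low library. There, 49 of 86 members in the High library were 1.5-fold higher, against 38.6% of all genes, and 35 of 72 in the Low library, against 22.0%. For cluster 3 over cluster 4, with log2 ratios of 0.44 and 0.43, the counts were 31 of 88 against 35.0% in the High library, a share close to the background, and 28 of 79 against 26.1% in the Low library. TMM scaling moved the shares of members and of all genes in the same direction, and the share of members further. Under TMM 76 members were higher in cluster 6 in the High library, or 88.4% against 49.7% of all genes, and 20 in the Low library, or 27.8% against 17.0%. For cluster 3 TMM gave 71 in the High library, or 80.7% against 48.0%.

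Against the epidermis-like cluster, cluster 6 had a log2 ratio of 0.64 in the High and 0.60 in the Low library, and 54 of 84 and 36 of 69 members were higher, against 48.1% and 29.5% of all genes. Cluster 3 had log2 ratios of 0.41 and 0.39 over cluster 7, and 30 of 86 and 20 of 80 members were higher, against 41.8% and 31.0%, so that its members were no more often higher than genes in general. With median-of-ratios scaling 17 members were higher in cluster 6 in the High library, or 20.2% against 36.0% of all genes, and 18 in the Low library, or 26.1% against 21.7%. TMM gave 8 for cluster 6 in the Low library, or 11.6% against 16.7%, so the comparison of members with all genes in cluster 6 over cluster 7 turned with the scaling. For cluster 3 median-of-ratios factors gave 12 and 13, or 14.0% against 33.3% in the High and 16.2% against 22.9% in the Low library. The Low library's cluster 7 also held blood markers at 4608 CPM, against 125.5 in the High library's. Summed markers of ionocytes were higher in cluster 7 than in cluster 3 in the Low library, at a log2 ratio of cluster 3 over 7 of -0.80 (-1.01 to -0.60). In the High library that ratio was 0.25. The part of blood and ionocyte markers in the values of cluster 7 was not tested.

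The retina-like cluster was the neural group in which the pigment clusters did not stand clearly apart. Cluster 6 over cluster 5 gave log2 ratios of 0.21 in the High and 0.23 in the Low library, and 15 of 89 and 20 of 79 members were higher, against 39.7% and 23.1% of all genes. Complex V in cluster 6 differed from that in cluster 5 by less than counting error in the High library, at a log2 ratio of 0.02 (-0.02 to 0.06), and was slightly higher in the Low library, at 0.09 (0.02 to 0.16). Complex III was higher in cluster 6 at 0.51 in the High and 0.47 in the Low library. Under TMM scaling the sum in the Low library was -0.09 and no longer above 0. Cluster 3 over cluster 5 gave -0.02 (-0.04 to 0.01) in the High and 0.02 (-0.01 to 0.05) in the Low library, and 6 of 91 and 5 of 81 members were higher, against 36.0% and 26.5%.

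Muscle-like cells stood above both pigment clusters. Members in cluster 6 were lower than in cluster 8 by a log2 ratio of -0.41 in the High and -0.43 in the Low library, and 29 of 89 and 30 of 79 were 1.5-fold lower, against 19.0% and 33.5% of all genes. In cluster 3 the ratios to cluster 8 were -0.64 and -0.65, with 55 of 90 and 47 of 81 members lower, against 19.1% and 24.6%. Under median-of-ratios factors 83 and 73 members were lower in cluster 6 in the High and the Low library, or 93.3% and 92.4% against 35.6% and 55.9% of all genes. In cluster 3 they were 84 and 80, or 93.3% and 98.8% against 33.0% and 45.2%. Against cluster 0, cluster 8 was 2.24-fold higher in the High and 2.30-fold higher in the Low library, and 83 of 92 and 82 of 91 members were higher, or 90.2% and 90.1%, against 16.4% and 16.1% of all genes. By complex the log2 ratios of cluster 8 over cluster 0 ran from 1.12 for complex V to 1.35 for complex II in the High library and from 1.15 to 1.46 in the Low library. Muscle markers summed to 42545 and 39251 CPM in cluster 8, and the 4 heart markers were at 0 there in both libraries.

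A few members departed from the common pattern in the pigment clusters, by being much higher than in cluster 0. One was atp5if1b, a copy of the inhibitory factor that stops the ATP synthase from running backwards. It had 126.0 CPM in the High and 126.5 in the Low library in cluster 6, and 122.8 and 98.95 in cluster 3, against 21.24 and 20.55 in cluster 0. Its log2 ratios to cluster 0 were 2.57 and 2.62 in cluster 6, 2.53 and 2.27 in cluster 3 and 3.80 and 3.30 in cluster 8, where it stood at 296.1 and 201.9. The epidermis-like cluster was also high, at 215.5 and 173.6, so a high level of atp5if1b was not particular to pigment clusters.

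The copper chaperone gene cox17, whose protein delivers copper to complex IV, stood at 93.1 CPM in the High and 143.3 in the Low library in cluster 6 and at 133.7 and 184.6 in cluster 3, against 23.06 and 31.72 in cluster 0 and 19.95 and 36.44 in cluster 4. In cluster 8 it reached 449.2 and 467.8, with log2 ratios to cluster 0 of 4.28 and 3.88, whose mean was the highest among the 89 members with 50 UMIs and the same sign in both libraries. Complex IV assembly factors together summed to 642 and 688 CPM in cluster 8, so most of that sum was cox17, against 123 and 148 in cluster 0. Unlike the members in general, cox17 was higher in cluster 3 than in cluster 6 in both libraries.

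Among accessory subunits of complex I, ndufa7 stood at 67.63 CPM in the High and 80.09 in the Low library in cluster 6 and 49.87 and 72.37 in cluster 3, against 15.28 and 22.15 in cluster 0. Its log2 ratios were 2.15 (1.70 to 2.61) in the High and 1.85 (1.07 to 2.57) in the Low library for cluster 6, and 1.71 in either library for cluster 3. The accessory subunit gene ndufb3 stood at 283.9 and 299.3 in cluster 6, against 93.52 and 92.37 in cluster 0. Neuron-like cells of cluster 4 held ndufa7 at 41.32 and 46.69 and ndufb3 at 178.1 and 157.1, above their levels in cluster 0. Both genes thus stood out less against cluster 4 than against cluster 0. In complex III, uqcrh, which encodes the hinge protein, stood at 634.1 and 564.9 in cluster 6 and 494.4 and 400.2 in cluster 3, against 200.8 and 181.5 in cluster 0, and in cluster 6 it matched the 645.2 and 522.5 of cluster 8. A complex I assembly factor, ndufaf3, completed the leading members of cluster 3, with 57.98 and 54.64 there and 23.31 and 24.54 in cluster 0.

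The member with the lowest ratio of cluster 3 to cluster 0 was cox6b1, a subunit 6B gene of complex IV. It was rare in xanthophore-like cells, with 5.61 CPM in the High and 2.95 in the Low library in cluster 3, or 18 and 2 UMIs, against 31.86 and 37.71 in cluster 0. The log2 ratio was -2.51 (-3.31 to -1.79) in the High and -3.67 (-6.73 to -1.80) in the Low library. In cluster 6 it had 24.55 and 8.43, so the High library's log2 ratio of -0.38 (-0.87 to 0.10) did not stand clear of 0, and the Low library's -2.16 rested on 2 UMIs in cluster 6. Its level was 58.41 and 46.69 in neuron-like cells and 55.80 and 55.81 in muscle-like cells. Its paralog cox6b2, an abundant member, behaved like the others, with 836.3 and 700.0 in cluster 3 against 594.3 and 505.3 in cluster 0. Thus cox6b1 supplied 0.666% (0.395 to 1.05%) of the UMIs of the pair in cluster 3 in the High and 0.420% in the Low library, against 5.09% and 6.94% in cluster 0 and 7.77% and 7.55% in cluster 4.

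**Figure D3:**
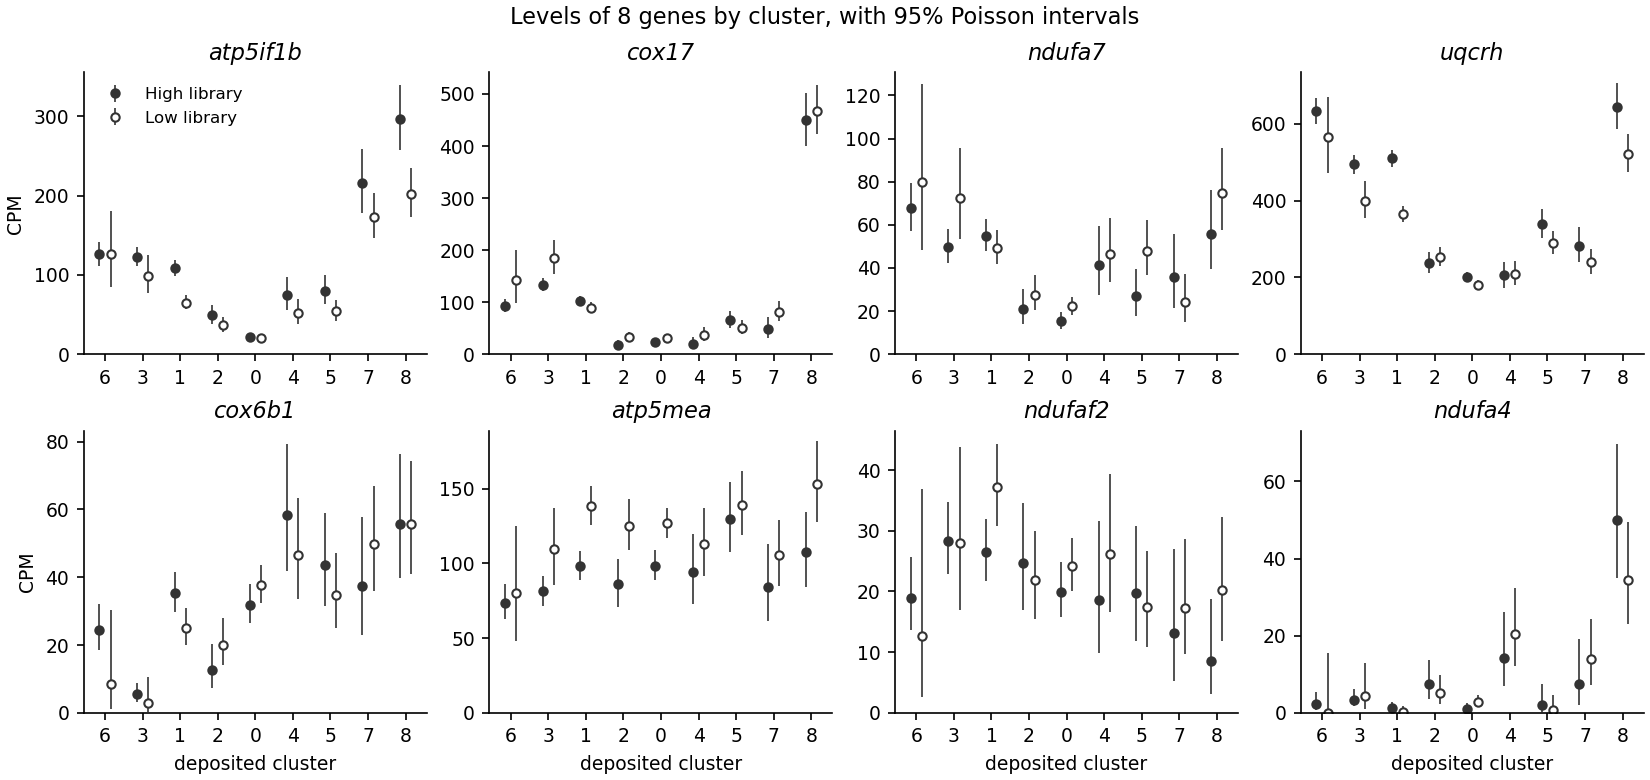
Levels of atp5if1b, cox17, ndufa7, uqcrh, cox6b1, atp5mea, ndufaf2 and ndufa4 in CPM in deposited clusters 6, 3, 1, 2, 0, 4, 5, 7 and 8, with filled points for the High and open points for the Low library and lines for 95% Poisson intervals. The gene cox17 stands far above its other values in cluster 8, at 449.2 and 467.8, and cox6b1 is lowest in cluster 3, at 5.61 and 2.95.

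Subunit e of complex V, which holds ATP synthase dimers together, also has 2 genes, which differed in opposite directions between clusters 6 and 0. The copy atp5mea stood at 73.65 CPM in the High and 80.09 in the Low library in cluster 6, against 98.44 and 126.7 in cluster 0, with log2 ratios of -0.42 (-0.69 to -0.15) and -0.66. The copy atp5meb stood at 434.9 and 438.4 in cluster 6 and 556.5 and 596.1 in cluster 8, against 142.2 and 149.8 in cluster 0. In cluster 8 atp5mea stood at 107.3 and 153.2, with log2 ratios to cluster 0 of 0.12 (-0.25 to 0.48) and 0.27 (-0.01 to 0.55), so the copies were not opposed there. The share of atp5meb in the pair was therefore 85.5% and 84.6% in cluster 6 and 83.8% and 79.6% in cluster 8, against 59.1% and 54.2% in cluster 0. In the inhibitory factor pair, atp5if1b gave 33.2% and 26.8% of the UMIs in cluster 6 and 32.8% and 26.9% in cluster 3, against 13.2% and 12.5% in cluster 0. In cluster 7 it gave 57.2% and 45.2%. The c ring, the rotor of the ATP synthase, has 3 genes. Within it atp5mc3a took 18.03% in the High and 18.06% in the Low library in cluster 3, against 28.6% and 30.1% in cluster 0. Its level in cluster 3 was 275.2 and 226.0, against 355.7 and 330.0 in cluster 0, while atp5mc3b took 60.2% and 61.4% in cluster 3 against 51.8% and 50.3% in cluster 0.

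Several other paralog groups were led by 1 copy in every cluster. The genes cox4i1, cox6a1, ndufa9a and sdhdb gave at least 95.45% of the UMIs of their groups in each of clusters 0 to 9. In the subunit 7a group, cox7a2a gave 84.9% in the High and 92.5% in the Low library in cluster 6 and 77.2% and 79.2% in cluster 0. The acyl carrier genes ndufab1a and ndufab1b were near parity, with ndufab1b at 44.9% and 54.6% in cluster 6 and 53.5% and 49.9% in cluster 0. The subunit 5a gene cox5ab gave 25.7% and 23.9% of its pair with cox5aa in cluster 8, against 36.1% and 34.3% in cluster 0. A difference between cell types was seen for ndufa4, now counted with complex IV, whose level was 50.07 and 34.43 CPM in muscle-like cells, 14.25 and 20.50 in neuron-like cells and 7.49 and 13.89 in the epidermis-like cluster, against 1.04 and 2.79 in cluster 0. The subunit 8 gene cox8b had UMIs in 4 of 76 and 8 of 129 cells of the epidermis-like cluster and in 5 of 69 and 1 of 84 of the muscle-like cluster, against 3 of 767 and 0 of 1001 in cluster 0. Median depths were 6428 and 6249 UMIs in cluster 7 and 4447 and 4559 in cluster 0, and with 36 UMIs in all the gene was too rare for more.

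The lowest remaining members were assembly factors of complex IV and complex I with few UMIs. In cluster 3 the log2 ratios of cox11, which acts in copper insertion, were -0.69 (-1.32 to -0.08) in the High and -0.85 (-2.01 to 0.12) in the Low library, from 35 and 9 UMIs. For cox10, which makes the heme precursor of complex IV, and for cox16, the interval included 0 in the Low library for cluster 3 and in both libraries for cluster 6. The complex I assembly factor ndufaf2 had log2 ratios of -0.07 and -0.93 in cluster 6, whose intervals included 0. In cluster 8 it had 8.58 and 20.19 CPM, against 19.95 and 24.14 in cluster 0, while cox20, which stabilises a mitochondrially encoded subunit of complex IV, had 38.63 and 42.75 against 11.66 and 10.97. The complex II anchor gene sdhdb was also among the leaders of cluster 8, with 191.7 and 199.5 against 44.04 and 40.30 in cluster 0.

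The most abundant members moved with the sum. In complex IV these were cox7c, cox6b2 and cox4i1, of which cox7c stood at 911 CPM in the High and 1222 in the Low library in cluster 6, against 398 and 519 in cluster 0. In complex V the c ring gene atp5mc3b stood at 943 and 885 in cluster 6 against 645 and 551 in cluster 0, atp5f1b, the catalytic beta subunit, at 740 and 780 against 556 and 510, and atp5f1e at 686 and 839 against 429 and 529. In complex III uqcrq stood at 428 and 561 in cluster 6 against 194 and 246 in cluster 0, and uqcr10 at 433 and 329 against 242 and 236. In complex I ndufa1 stood at 339 and 443 in cluster 6 against 160 and 184 in cluster 0, whereas ndufb8, at 225 and 181 against 168 and 142, and ndufs5, at 218 and 249 against 157 and 151, differed by less. The succinate dehydrogenase genes were the least abundant, with sdhb at 132 and 97.0 in cluster 6 against 66.1 and 61.9 in cluster 0, and sdha, the catalytic subunit, at 81.5 and 113.8 against 44.8 and 43.3.

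Members followed each other closely over the 18 values of clusters 0 to 8 in both libraries, which share cells, depth and totals within a library. Each of 88 members with at least 500 UMIs over both libraries together was set against the summed level of the other members on the log2 scale. The median Pearson correlation was 0.855, with 62 at 0.8 or more. The 2940 other genes with at least 500 UMIs in each library had a median of -0.302 with the summed members, and 2.31% were at 0.8 or more. Their minimum was stricter than that of the members, so the 2 sets were not chosen alike. The closest members were cox6c at 0.970, atp5l at 0.967 and ndufb7 at 0.962. Only 6 of the 88 members were under 0.5, namely ndufaf2 at -0.35, cox6b1 at -0.01, atp5mea at 0.09, sdhaf2 at 0.29, cox10 at 0.46 and sdhaf4 at 0.47. Of the 2940 other genes, the 10 most alike were dldh at 0.960, slirp at 0.956, mt-atp6 at 0.945, dlst at 0.937, eif4ebp1 at 0.932, suclg1 at 0.928, timm13 at 0.918, micos10 at 0.917, romo1 at 0.916 and cycsb at 0.914. Among them dldh, dlst and suclg1 encode enzymes of the citric acid cycle or of complexes shared with it, slirp a protein that binds mitochondrial messenger RNA, timm13 a part of protein import, micos10 a part of the cristae junction, and cycsb cytochrome c.

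Cluster 1 held cells with and without melanophore markers, and members were ordered by them. The 10 markers other than mitfa were summed per 10000 UMIs of each cell, a division made after earlier results were known. In the High library members stood at 18436 CPM in the 76 cells with no marker UMI, 19856 in the 152 cells under 10, 22027 in the 142 cells from 10 to under 50 and 23162 in the 65 cells at 50 or more. In the Low library they stood at 17337, 19091, 22200 and 25036 in 222, 123, 30 and 5 cells. The medians of single cells ran in the same order, at 1.80, 1.99, 2.20 and 2.35% in the High and 1.70, 1.91, 2.27 and 2.33% in the Low library. The uppermost bin of the High library thus stood near the 23708 of cluster 6, and the order was kept among cells with 6000 to 12000 UMIs, at 19151, 19777, 22100 and 23711 in the High library. Mitochondrially encoded genes, at 20213, 20069, 23120 and 23443 CPM over the same bins of the High library, were also higher in the upper bins. In the Low library they stood at 19428, 19727, 22869 and 20611, so the uppermost bin, of 5 cells, lay below the one before it. The median depths in the High library were 8784, 8899, 9716 and 9365 UMIs.

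Between the outer bins of cluster 1, members at 50 or more exceeded those at none by a log2 ratio of 0.33 in the High library (0.29 to 0.36), and by 0.53 in the Low library, from 5 cells. In the High library 21 of 79 members were 1.5-fold higher, or 26.6%, against 24.6% of all genes, which is no more than the background, and in the Low library 38 of 83, or 45.8%, against 34.7%. The shift was thus broad and small, with a median log2 ratio of 0.36 in the High library against 0.03 for all genes. Examples were uqcrh at 610.9 CPM in the uppermost bin against 373.9 at none, the complex I accessory subunit gene ndufa6 at 268.5 against 150.4 and atp5if1b at 139.3 against 74.48, all in the High library. As between clusters, atp5mea went the other way in the High library, at 62.1 against 121.2, at a log2 ratio of -0.96 (-1.56 to -0.39), whereas in the Low library it was 133.4 against 143.7.

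**Figure D4:**
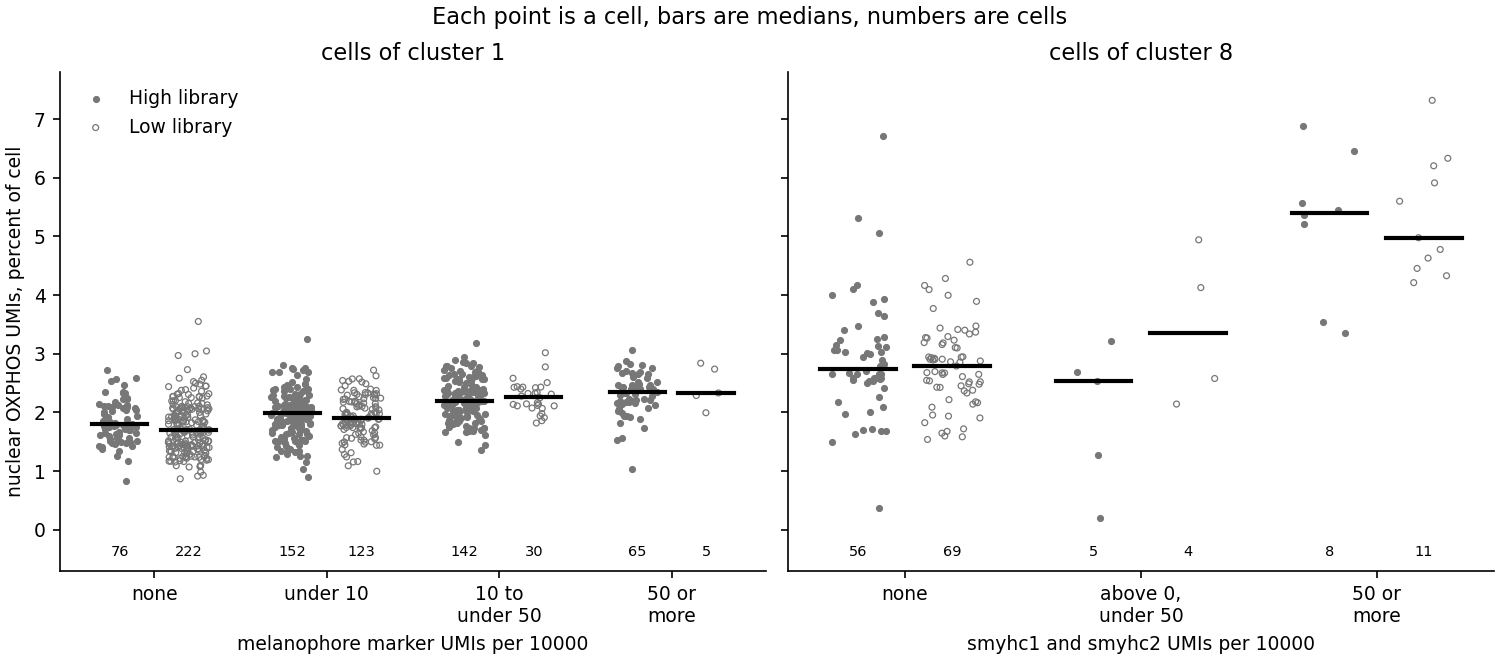
Percent of the UMIs of each cell that came from nuclear oxidative phosphorylation genes, for cells of cluster 1 by melanophore marker UMIs per 10000 (left) and cells of cluster 8 by smyhc1 and smyhc2 UMIs per 10000 (right), with filled points for the High and open points for the Low library, bars at the medians and cell numbers below. In cluster 1 the medians of the High library stand at 1.80, 1.99, 2.20 and 2.35%, and in cluster 8 the cells at 50 or more have medians of 5.41% in the High and 4.98% in the Low library.

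Cells of the muscle-like cluster were divided by the slow myosin genes smyhc1 and smyhc2, which mark slow muscle fibres, and members were highest where these were. In the 8 High and 11 Low cells with 50 or more of their UMIs per 10000, members stood at 52808 and 54820 CPM, against 29152 and 27847 in the 56 and 69 cells with none. The few cells between did not form a step, with 22766 in 5 High cells, below those with none, and 29279 in 4 Low cells. Single cells ran from 3.36 to 6.88% in the High and from 4.21 to 7.32% in the Low library at 50 or more, against 0.379 to 6.71% and 1.54 to 4.56% at none, so the groups overlapped in both libraries and High cells with none covered most of the range. The fold was 1.81 in the High and 1.97 in the Low library, with log2 ratios of 0.86 and 0.98, and 58 of 78 and 68 of 78 members were 1.5-fold higher, or 74.4% and 87.2%, against 22.0% and 23.5% of all genes. With totals that left out mitochondrially encoded and ribosomal protein genes, the log2 ratios were 0.49 and 0.54. These cells also held more of the other muscle markers, at a median of 8.74% and 8.37% of UMIs against 2.74% and 2.55%, and their part in the difference was not tested.

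Within cluster 8 the c ring gene atp5mc1 showed one of the largest such differences, with 2146 CPM in the High and 1692 in the Low library at 50 or more, against 547.6 and 453.2 at none, and log2 ratios of 1.97 and 1.90. Its ring partner atp5mc3b had log2 ratios of only 0.39 and 0.48, and atp5mc3a of 0.23 and 0.18. The complex I accessory subunit genes ndufa12, at 1.62 and 1.75, and ndufb7, at 1.41 and 1.65, were also far higher. In contrast cox7a2l, which joins complexes III and IV into supercomplexes, had 0.24 and -0.16, and cox17, the leading gene of the cluster as a whole, had 585.3 and 673.0 at 50 or more against 446.8 and 441.8 at none.

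Between the sorted libraries, members were slightly more abundant in the High library as a whole, at 19108 CPM against 16896 in the Low library, or 1.91% against 1.69% of all UMIs. The log2 ratio was 0.18 (0.17 to 0.19). Scaled by totals, it was seen within cluster 1, at 0.18, and lay between -0.01 and 0.06 in each of the other clusters. Their cell numbers differ between the libraries, with 197 and 22 cells in cluster 6 and 324 and 78 in cluster 3. This depended on scaling, since TMM gave 0.555 in cluster 6, 0.395 in cluster 3 and -0.139 in cluster 4. Within cluster 1 the melanophore markers also differed, at 2728 CPM in the High and 786.5 in the Low library. Of 104 members compared over all cells, 5 were 1.5-fold higher and 2 lower in the High library, against 12.9% and 13.9% of all genes, so few single members moved far.

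Among members with at least 200 UMIs, the 3 highest in the High library over all cells were NDUFB1, an accessory subunit gene of complex I, at 57.05 CPM in the High and 32.17 in the Low library, sdhc, a membrane anchor of complex II, at 64.23 and 40.81, and atp5if1b at 97.29 and 62.32. The 3 lowest were ndufa4l2a, at 1.77 and 13.69, atp5mea, at 92.73 and 128.0, and cox11, at 16.36 and 20.84. Members under 200 UMIs included ndufb11, at 1.03 and 2.63 from 18 and 39 UMIs, and cox7a1, at 3.48 and 2.16 from 61 and 32 UMIs, both named after their values were seen. Nearly all of the ndufa4l2a UMIs of the Low library came from cluster 9, with 192 of 203.

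Some members leaned to the same library in every cluster. Among 72 members with enough UMIs in each of clusters 0 to 8, 16 were higher in the High library in all 9 clusters and 8 were lower in all 9, against 6.83% and 5.23% of all genes. The higher ones included NDUFB1, with log2 ratios from 0.51 to 1.04, sdhc, ndufb6, ndufa12, cox6a1 and cox6b2. The lower ones were atp5mea, ndufa3, atp5md, atp5f1e, cox7c, ndufa1, atp5mf and ndufa2, with cox7c between -0.53 and -0.19. Several values lay close to 0, such as the lowest of uqcrc1 at 0.00, and their side of 0 depends on the scaling used. A lean shared by neuron-like, muscle-like and pigment cells goes with the library, and sort gate and library preparation cannot be told apart here.

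**Figure D5:**
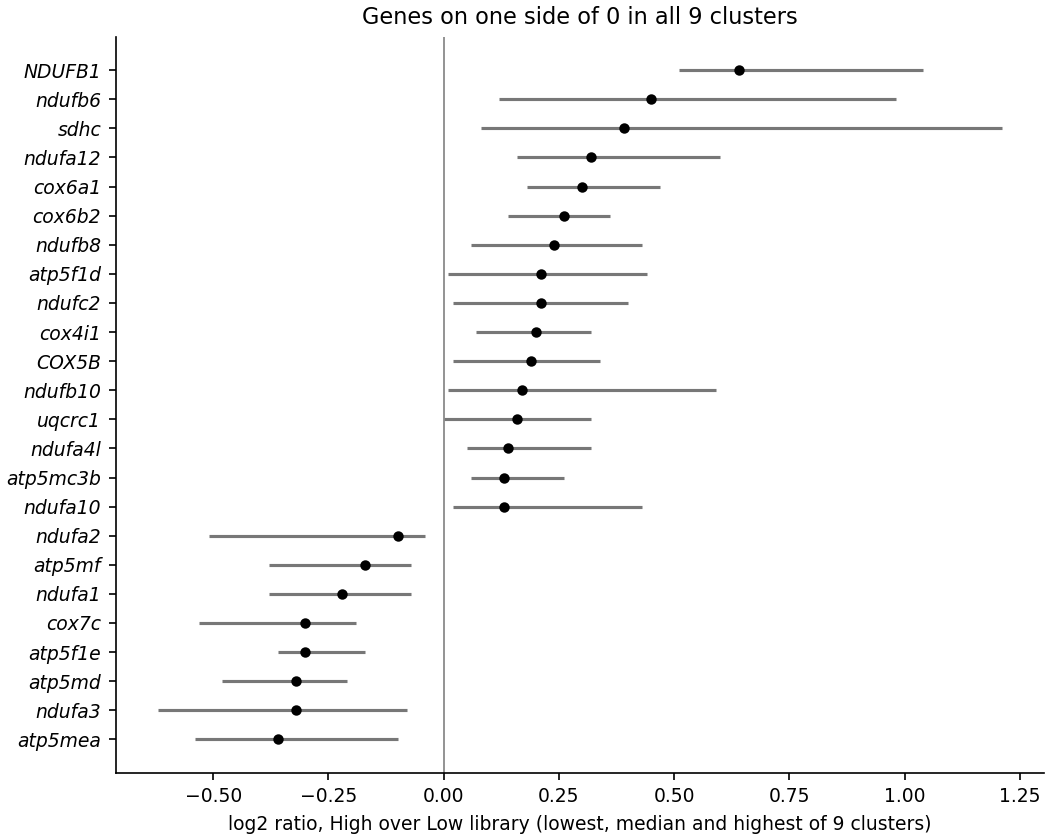
Log2 ratio of the High over the Low library for the 24 members on the same side of 0 in all 9 clusters, with a point at the median and a line from the lowest to the highest cluster. The 16 genes to the right of 0 are led by NDUFB1, from 0.51 to 1.04, and the 8 to the left by atp5mea, from -0.54 to -0.10.

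Other mitochondrial gene lists showed how far the pattern reached. The 13 mitochondrially encoded subunits stood at 25939 CPM in the High and 25929 in the Low library in cluster 6, against 15639 and 15479 in cluster 0, log2 ratios of 0.73 and 0.74 that match those of the nuclear members. In cluster 8 their sum stood at 24463 and 23473, below cluster 6. Single genes did not share this, with a median log2 ratio of cluster 6 over 8 of 0 in the High and -0.06 in the Low library. The log2 ratio of the sum in cluster 8 to cluster 0 was 0.65 in the High library, where nuclear members had 1.16. The ratio of mitochondrially to nuclear encoded UMIs was therefore 0.776 and 0.751 in cluster 8, against 1.09 and 1.12 in cluster 6 and 1.11 and 1.14 in cluster 0. Most barcodes outside the cell table had a mitochondrial share of at least 5 percent, so these values describe cells kept below it.

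Of 28 respiratory chain genes outside the naming rule, such as those of cytochrome c and of further assembly factors, the sum in cluster 6 over cluster 0 had log2 ratios of 0.93 and 0.86. Citric acid cycle genes stood at 1305 and 1290 CPM in cluster 6 and 1807 and 1713 in cluster 8, against 653 and 633 in cluster 0. In cluster 6, 13 of the 15 compared were 1.5-fold higher and 0 lower in each library. Over all genes 30.9% in the High and 23.5% in the Low library were higher. Summed glycolysis genes had larger log2 ratios to cluster 0 still, 1.57 and 1.39 in cluster 6 and 2.43 and 2.24 in cluster 8. Cluster 3 had 1.28 and 1.08. Abundant genes weigh most in these sums, so the values do not give the ratio of a typical glycolysis gene. In cluster 6 over the neuron-like cells of cluster 4, glycolysis genes were higher in 6 and lower in 6 of 15 cases in the High library. Over all genes 38.6% were higher and 32.6% lower there. Against cluster 8 their sum was lower in cluster 6, at -0.86 and -0.85, but single glycolysis genes went both ways. In the High library 9 of 17 were higher and 6 lower, at a median log2 ratio of 0.73. Over all genes 50.8% were higher and 19.0% lower there, at a median of 0.61, so the share of higher genes was near the background. In the Low library 3 of 11 were higher and 5 lower, at a median of -0.16. All genes there were 31.0% higher and 33.5% lower, at a median of -0.05. Genes of the mitochondrial ribosome, which makes the mitochondrially encoded subunits, differed less, at 0.32 and 0.33 in cluster 6, 0.03 and 0.32 in cluster 3 and 0.88 and 0.82 in cluster 8.

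Summed genes of factors known to drive mitochondrial gene expression did not run with the members in cluster 6, at log2 ratios to cluster 0 of -1.58 and -1.40. The sum was also lower in cluster 3, at -1.39 and -1.01. In cluster 8 it was -0.21 (-0.44 to 0.01) and -0.15 (-0.36 to 0.06). Of the 5 such genes compared for cluster 6 over cluster 0, 4 in the High and 3 in the Low library were 1.5-fold lower and 0 were higher. Over all genes 42.6% and 42.7% were lower, and 5 genes are too few to set their share apart from these. The gene nrf1, which encodes nuclear respiratory factor 1, had 6.49 CPM in the High and 4.22 in the Low library in cluster 6. It had 4.29 and 3.56 in cluster 8, against 58.03 and 45.49 in cluster 0. The values of nrf1 rested on 14 and 1 UMIs in cluster 6 and on 3 and 3 in cluster 8. The gene gabpa, a subunit of nuclear respiratory factor 2, had 23.62 and 4.22 in cluster 6, from 51 and 1 UMIs. It had 22.89 and 19.00 in cluster 8, against 104.7 and 97.16 in cluster 0. The mitochondrial transcription factor gene tfam had 16.21 and 29.51 in cluster 6, from 35 and 7 UMIs, and 54.36 and 53.43 in cluster 8. In cluster 0 it had 68.65 and 63.44, and the intervals of its log2 ratios in cluster 8 included 0. In muscle-like cells the coactivator gene ppargc1b was higher, at 128.8 and 112.8 against 37.56 and 35.71 in cluster 0, a log2 ratio of 1.78 and 1.66, while in cluster 6 it stood at 36.13 and 33.72. The mitochondrial transcription factor gene tfb2m had 34.34 and 51.06 in cluster 8, against 25.39 and 22.34 in cluster 0. Its log2 ratios were 0.44 (-0.27 to 1.09) in the High library, which includes 0, and 1.19 in the Low library. The related gene ppargc1a had 0 to 2 UMIs in each of these clusters and could not be compared.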

How the data were processed

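Cells of Tg(mitfa:GFP) embryos were profiled with the 10x single cell 3′ v3.1 kit. According to the submitters' processing notes, Cell Ranger 6.1.2 and the zebrafish build GRCz11 were used, and the annotation release is not given in the sources used here. For each library the authors deposited a matrix of counts that were not normalised, with 1 row a gene and 1 column a barcode. The authors' cell table, made with Seurat, gave the cells to use, the clusters and the library of each cell. A deposited aggregated matrix, in which the High library has fewer UMIs than in its own, was an alternative, and the authors' scores and phases were not used.

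Counts were summed over cells by cluster and library and divided by all UMIs of those cells to give CPM. Intervals are exact and at 95%, from the Poisson distribution for a sum, from the binomial conditional on the total for a ratio, and by the Clopper-Pearson method for a share. Ratios are on the log2 scale, a floor of 3 UMIs stood in for 0, and counts of members used at least 50 UMIs on both sides together and a fold of 1.5. A cluster was called by the marker class leading its genes by fold, and doublets were not removed in the main results. Members, lists, bins and named genes were chosen with earlier results of these data known. Named were the 3 most abundant members per complex, the 5 highest and 5 lowest ratios of clusters 6, 3 and 8 to cluster 0 with the same sign in both libraries, the 3 highest and 3 lowest of High over Low, all paralog groups, and the 10 most similar other genes. All 115 member IDs were in the reference name table, 99 with the same symbol, and symbols follow the deposited files. The ratios and their intervals were tested on simulated sums with known folds and counting error only, without spread between cells or libraries.

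Alternatives were TMM factors from edgeR 4.0.16 in R 4.3.3, median-of-ratios factors, totals without 13 mitochondrially encoded and 96 ribosomal protein genes, minimums of 20 and 200 UMIs, a pseudocount of 5 CPM, cells with 3000 to 12000 UMIs, equal weight per cell, all deposited barcodes, the aggregated matrix, both libraries added, and the top 5 percent of Scrublet scores (scanpy 1.11.5) left out, since its automatic threshold marked only 6 and 5 barcodes. The cluster 8 over 0 alternatives and the bins within clusters 1 and 8 were added after seeing the data. Python 3.11.15, numpy 2.4.6, scipy 1.17.1, pandas 2.3.3 and matplotlib 3.10.9 were used.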

Additional observations from a re-analysis of the deposited data

Results flagged for a closer look

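In data outside the comparisons of the report, ndufa4l2a stood at 2221 CPM in cluster 9, which exists only in the Low library and is led by the insulin gene ins. It had 192 UMIs there, in 14 of 19 cells or 73.7% (exact interval 48.8 to 90.9%), with up to 32 in a cell, at a median depth of 3962 UMIs. In the 1001 cells of cluster 0 of the same library, at a median depth of 4559 UMIs, no cell had a UMI of it, which allows up to 0.368% of cells with a UMI by counting error and sets no limit on cells that express the gene. Within the group of NDUFA4 paralogs it gave 93.2% of the UMIs of cluster 9, and ndufa4l gave 6.80%. In cluster 4 of the High library its 19 UMIs came from 1 cell.

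Barcodes that the cell table left out also held the members. They stood at 22115 CPM in the 231 such barcodes of the High library and at 24166 in the 310 of the Low library, above the 19108 and 16896 of the kept cells. Most, 220 and 288, drew at least 5 percent of their UMIs from mitochondrially encoded genes, at median depths of 1047 and 882 UMIs. They had members at 19616 CPM in the High library, near the kept cells, and at 23482 in the Low library. The remaining 11 and 22 had members at 25276 and 24677 CPM, at median depths of 25221 and 24593 UMIs. These few held 7589 of the 15040 member UMIs left out in the High and 15017 of 25680 in the Low library.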

How the results depend on the processing

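The sums of clusters 6 and 3 stayed above clusters 0, 4 and 7 and below cluster 8 under every alternative run, at log2 ratios from 0.744 to 0.92 in the High and from 0.383 to 0.871 in the Low library for cluster 6 over 0, and from 0.51 to 0.772 and from 0.395 to 0.638 for cluster 3 over 0. The sum of cluster 6 over 5 in the Low library was -0.092 under TMM, and that of cluster 3 over 5 took both signs. The shares of cox6b1, atp5if1b and atp5mc3b were varied in some clusters, with equal weight per cell and with the aggregated matrix. These 44 alternative values stayed within the intervals of their main values, and other paralog shares were not varied. Of 262 counts of members, 227 stayed within 1.5 times. Of 288 alternative log2 ratios of summed members, 121 left the counting interval of the main value and 1 reversed, and of 36 for other lists 23 left it.

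Counts of 1.5-fold members depended on scaling. TMM gave 24 higher members for cluster 6 over 0 in the Low library, 76 and 20 for cluster 6 over 4 in the High and the Low library, and 8 for cluster 6 over 7 in the Low library. For cluster 3, TMM gave 53 over cluster 0 and 71 over cluster 4, both in the High library. Lower members under TMM numbered 62 of 89 and 76 of 79 for cluster 6 under 8, and 79 of 81 for cluster 3 under 8 in the Low library. TMM moved the log2 ratios of all genes by -0.32 in the High and -0.89 in the Low library for cluster 6 over 8. For cluster 3 over 8 in the Low library it moved them by -0.66. The counts alone therefore do not set members apart from other genes. The shares of all genes beside these counts are not given here. Median-of-ratios factors gave 17 and 18 for cluster 6 over 7, 51 for cluster 3 over 0 in the High library, 12 and 13 for cluster 3 over 7, and 83 and 73 for cluster 6 and 84 and 80 for cluster 3 under 8. These factors shifted the median of all genes, for cluster 8 over 0 by 0.49 in the High and 0.50 in the Low library with TMM and by 0.74 and 0.76 with median-of-ratios factors, and for cluster 6 over 0 in the Low library by -0.39 with TMM.

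A minimum of 200 UMIs, which leaves fewer genes, gave in the Low library 18 for cluster 6 over 4, 16 over 7 and 17 under 8. For cluster 3 it gave 13 over 4, 4 over 7 and 31 under 8. Adding the libraries gave 31 for cluster 3 over 7. The numbers of members compared and the shares of all genes are not given for these counts. A changed count therefore does not show a changed share of members. High over Low over all cells was 0.236 with TMM, 0.191 with median-of-ratios factors, and 0.16 with the aggregated matrix and with 3000 to 12000 UMIs. Within cluster 1 it was 0.158 without mitochondrially encoded and ribosomal protein genes, 0.226 with TMM and 0.159 with the aggregated matrix. With TMM it was 0.555 within cluster 6, 0.395 within cluster 3 and -0.139 within cluster 4. The cause of these shifts was not tested. No paired analysis was possible because each group has 1 library.

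With 1 library a sort fraction, no spread between libraries could be measured, and agreement of both libraries is the only repeat. The 22 cells of cluster 6 in the Low library limit every value there, and members under 50 UMIs were not compared.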
